A study of Mus musculus with 9 samples.

Results

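The hypoxia response genes described here are 9 genes of the 38293 in the count table: Hif1a, Epas1, Egln1, Egln3, Vegfa, Bnip3, Ankrd37, Ndrg1 and Ddit4. They were listed by symbol, matched to the Ensembl identifiers of the table, and followed through every library. No measured value entered the choice of the 9 symbols, but the list was drawn up with earlier results of these data known. All 9 passed the filter on low counts in every comparison.

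RNA-seq profiled E14, a mouse embryonic stem cell line of the 129/Ola strain, in 3 culture states with 3 biological replicates each. mESC-2i, described as naive, were grown in serum-free N2B27 medium with leukaemia inhibitory factor (LIF), the MEK inhibitor PD0325901 and the GSK3 inhibitor CHIR99021. mESC-ser, described as primed, were grown on gelatin in DMEM with foetal bovine serum, glutamine, β-mercaptoethanol, non-essential amino acids, penicillin-streptomycin and LIF. EpiLC are epiblast-like cells, which were derived from the naive cells on human plasma fibronectin in N2B27 with activin A, bFGF and KSR, a serum replacement. All 3 states shared the cell line, daily medium changes and a CO2 incubator, and none was labelled as deprived of oxygen. Oxygen tension and the number of days in each medium are not given in the sources used here. Because all libraries come from 1 line, the replicates measure the spread between cultures of that line only.

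Hypoxia-inducible factor (HIF) is a transcription factor made of an oxygen-labile α subunit and a stable partner, Arnt. When oxygen is plentiful, prolyl hydroxylases of the Egln family mark the α subunit, the Vhl ubiquitin ligase binds it and the proteasome destroys it. Most of this control acts on the protein, so the mRNA level of an α subunit is not a measure of HIF activity. When oxygen falls, HIF raises genes of glycolysis, blood vessel growth, mitophagy and its own hydroxylases. Embryonic stem cells express the pathway also in ordinary culture.

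HIF binds DNA at the core RCGTG, that is ACGTG or GCGTG. The 250 bases before the RefSeq transcription start (build GRCm38.p6, the assembly also named mm10) were read for 7 of the 9 genes. Vegfa had starts at 2 places, which gives 8 windows. Epas1 and Ndrg1 were not matched. The windows of the 3 genes that were highest in EpiLC (Bnip3, Ankrd37, Egln3) are shown first, followed by those of Ddit4, which was lowest in mESC-ser, Vegfa, which was highest in mESC-2i, and Hif1a, the leading α subunit. Each is printed on the strand of its gene, with ACGTG or its reverse complement CACGT in capitals.

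Bnip3 (chr7:138909507-138909756, minus strand): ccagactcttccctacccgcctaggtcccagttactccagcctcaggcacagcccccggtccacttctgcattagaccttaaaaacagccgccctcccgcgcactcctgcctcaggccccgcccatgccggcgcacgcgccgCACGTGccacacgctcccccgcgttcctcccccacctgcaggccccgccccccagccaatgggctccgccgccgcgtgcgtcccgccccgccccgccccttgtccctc
Ankrd37 (chr8:45999851-46000100, minus strand): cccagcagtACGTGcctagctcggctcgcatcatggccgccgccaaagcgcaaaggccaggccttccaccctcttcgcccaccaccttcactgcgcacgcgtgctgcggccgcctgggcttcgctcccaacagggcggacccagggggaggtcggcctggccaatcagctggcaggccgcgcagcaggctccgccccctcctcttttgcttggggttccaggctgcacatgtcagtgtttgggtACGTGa
Egln3 (chr12:54203875-54204124, minus strand): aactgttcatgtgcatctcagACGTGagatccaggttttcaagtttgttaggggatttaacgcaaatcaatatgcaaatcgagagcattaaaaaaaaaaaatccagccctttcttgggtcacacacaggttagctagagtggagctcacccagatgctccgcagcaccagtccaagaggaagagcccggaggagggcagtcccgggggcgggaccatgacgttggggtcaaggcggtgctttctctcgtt
Ddit4 (chr10:59951771-59952020, minus strand): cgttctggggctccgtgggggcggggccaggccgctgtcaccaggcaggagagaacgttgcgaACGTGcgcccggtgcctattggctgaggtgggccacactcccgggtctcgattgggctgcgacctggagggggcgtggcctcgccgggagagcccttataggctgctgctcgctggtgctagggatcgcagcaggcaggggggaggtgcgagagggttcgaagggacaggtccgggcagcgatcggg
Vegfa, first start (chr17:46032378-46032627, minus strand): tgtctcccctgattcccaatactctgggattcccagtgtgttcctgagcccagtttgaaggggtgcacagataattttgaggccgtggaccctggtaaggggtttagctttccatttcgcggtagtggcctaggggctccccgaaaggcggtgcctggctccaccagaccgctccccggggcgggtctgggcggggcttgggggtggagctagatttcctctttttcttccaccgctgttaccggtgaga
Vegfa, second start (chr17:46025164-46025413, minus strand): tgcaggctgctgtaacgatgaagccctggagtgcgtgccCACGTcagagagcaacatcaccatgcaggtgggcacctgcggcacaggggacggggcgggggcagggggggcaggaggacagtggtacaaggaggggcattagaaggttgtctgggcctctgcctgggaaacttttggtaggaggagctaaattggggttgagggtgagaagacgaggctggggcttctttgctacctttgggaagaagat
Hif1a (chr12:73907617-73907866, plus strand): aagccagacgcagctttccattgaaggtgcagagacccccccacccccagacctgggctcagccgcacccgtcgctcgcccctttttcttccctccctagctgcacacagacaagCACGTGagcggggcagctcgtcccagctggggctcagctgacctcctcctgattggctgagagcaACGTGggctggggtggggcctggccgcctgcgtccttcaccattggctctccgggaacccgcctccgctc

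The Bnip3 window held CACGTG, which reads as ACGTG on both strands, at 108 and 107 bases before the start. Hif1a had the same overlapping pair at 135 and 134 bases and another match at 70 bases. CACGTG is also the E-box bound by other basic helix-loop-helix factors. In Ankrd37 the matches lay 241 and 6 bases before the start. Single matches lay at 229 bases in Egln3, 187 bases in Ddit4 and 68 bases in Egln1. The window before the first Vegfa start held no match, and the second held 1 at 211 bases. By the gene positions given below, the second Vegfa window and those of Hif1a and Ankrd37 lie wholly inside the gene. The windows of Bnip3, Ddit4 and Egln1 overlap the edge of theirs. In all, 7 of the 8 windows held ACGTG on either strand, where 16.6% of 32851 RefSeq promoter windows of the same length did. GCGTG was present in the windows of Bnip3, Ankrd37, Egln1, Ddit4 and the second Vegfa start, and in 28.2% of all windows. Either form was present in the same 7 of the 8 windows, and in 38.6% of all windows. The median GC content was 67.0% in the 8 windows and 52.4% in all windows, and its part in the motif count was not tested. A match is a description of the sequence. Binding was not measured here.

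Levels are given as CPM, counts divided by library size, scaled by TMM over the 9 libraries, for replicates 1, 2 and 3 in turn. Fold changes come from edgeR's quasi-likelihood test on the 6 libraries of a pair, with a standard error (SE) and a Benjamini-Hochberg adjusted p over all genes tested. A gene was called higher or lower at an adjusted p under 0.05 with an absolute log2 fold change over 0.5. The 3 comparisons share groups, so each gives its own values and none is independent support for another. In bulk RNA, fewer cells with a transcript and less of it per cell cannot be told apart. Libraries held 7187576 to 16829549 counts. Fold changes followed gene length, with a Spearman correlation across protein-coding genes of 0.28 in mESC-ser against mESC-2i (13292 genes), -0.3 in EpiLC against mESC-2i (13037 genes) and -0.498 in EpiLC against mESC-ser (12919 genes). Genes are not replicates, and the correlations are a description only. A fit with length and GC offsets is therefore given beside a gene where it changed the call, or moved the fold change or its log2 by over 1.5 times.

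Pluripotency markers differed between the states. Summed over 8 naive markers, levels were 3130 to 3200 CPM in mESC-2i, 1750 to 1800 in mESC-ser and 101 to 113 in EpiLC, and the sum of 6 formative and primed markers ran the other way at 120 to 128, 686 to 799 and 1800 to 1900 CPM. Single markers went against these sums in mESC-ser. The naive marker Nr0b1 rose there from 52.2 to 107 CPM and Zfp42 stood at 353 CPM against 293 in mESC-2i, which was not called, while Fgf15, of the second list, fell from 24.4 to 10.4 CPM. Of 6 endothelial and blood markers, 3, 3 and 4 held 3 counts or fewer in every library of mESC-2i, mESC-ser and EpiLC, with Emcn and Hbb-bt at 0 throughout. The sum of these 6 was 23.2 to 24.8, 20.4 to 20.9 and 3.64 to 5.21 CPM, mostly from Tek, a receptor of vessel lining cells. Summed markers of mesoderm and neural cells were also highest in mESC-2i, at 102 to 125 CPM, against 36 to 38.6 in mESC-ser and 4.01 to 6.31 in EpiLC. Trophectoderm markers gave 92.3 to 103, 47.9 to 56.8 and 10.9 to 11.9 CPM. Primitive endoderm markers gave 7.74 to 9.34, 9.84 to 11.8 and 2.26 to 4.03 CPM, and fibroblast markers 40.4 to 44.8, 60.8 to 80.4 and 42.2 to 45.9 CPM. Of the 5 fibroblast markers, 2 were called higher and 3 lower in EpiLC against mESC-2i, so their sum hides opposed members. Col1a1 went from 22.5 CPM in mESC-2i to 1.47 in EpiLC, and Thy1 from 3.05 to 29.5 CPM. The part of such cells in the results was not tested.

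**Figure D1:**
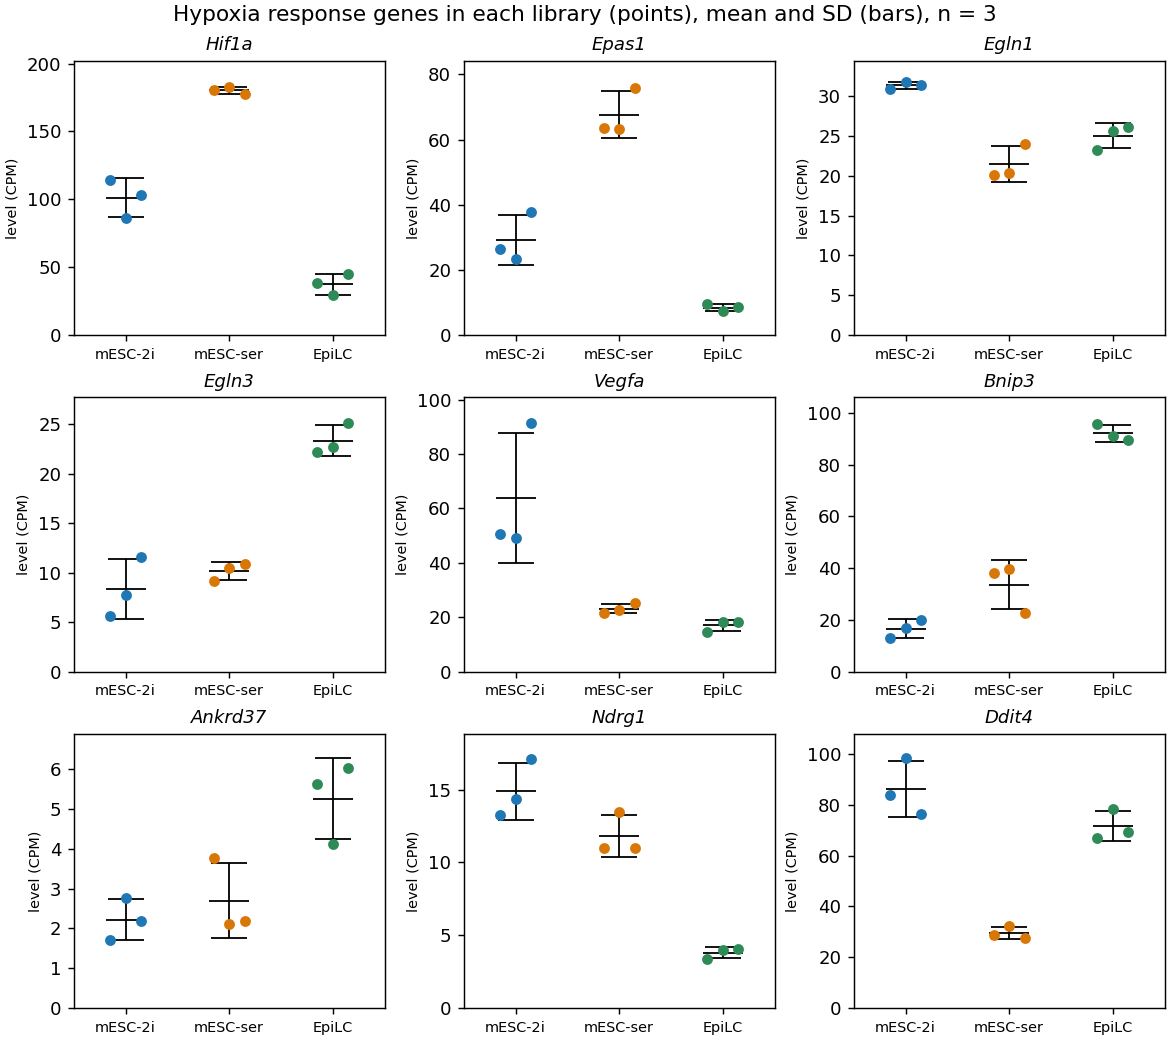
Level of each hypoxia response gene in CPM (vertical axes, linear and from 0, a scale of its own for each gene) in the 3 libraries of mESC-2i, mESC-ser and EpiLC, as points, with the mean and SD as black bars. Hif1a and Epas1 were lowest in EpiLC, Bnip3, Egln3 and Ankrd37 were highest there, and Ddit4 was lowest in mESC-ser.

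Between mESC-ser and mESC-2i 6 of the 9 genes were called, against 56.2% of all 15728 genes tested. Hif1a, Epas1 and Bnip3 were higher (25.9% of all genes were) and Egln1, Vegfa and Ddit4 lower (30.3% of all genes). The median log2 fold change was 0.20 over the 9 and -0.04 over all genes. In EpiLC against mESC-2i 7 of the 9 were called, against 69.8% of 15378 genes. Egln3, Bnip3 and Ankrd37 were higher (32.0% of all genes) and Hif1a, Epas1, Vegfa and Ndrg1 lower (37.8% of all genes). Here the medians were -0.34 and -0.11. In EpiLC against mESC-ser 7 were called, against 73.3% of 15345 genes. Egln3, Bnip3, Ankrd37 and Ddit4 were higher (35.5% of all genes) and Hif1a, Epas1 and Ndrg1 lower (37.8% of all genes), with medians of 0.30 and -0.07. Each of these shares is near that of all genes, so the number of calls does not set the 9 genes apart. Their directions were mixed in every comparison. With total-count scaling the median of all genes moved to -0.45 in EpiLC against mESC-2i and to -0.41 in EpiLC against mESC-ser, and 3 of the 9 were then called higher and 6 lower in the first, and 4 and 4 in the second.

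**Figure D2:**
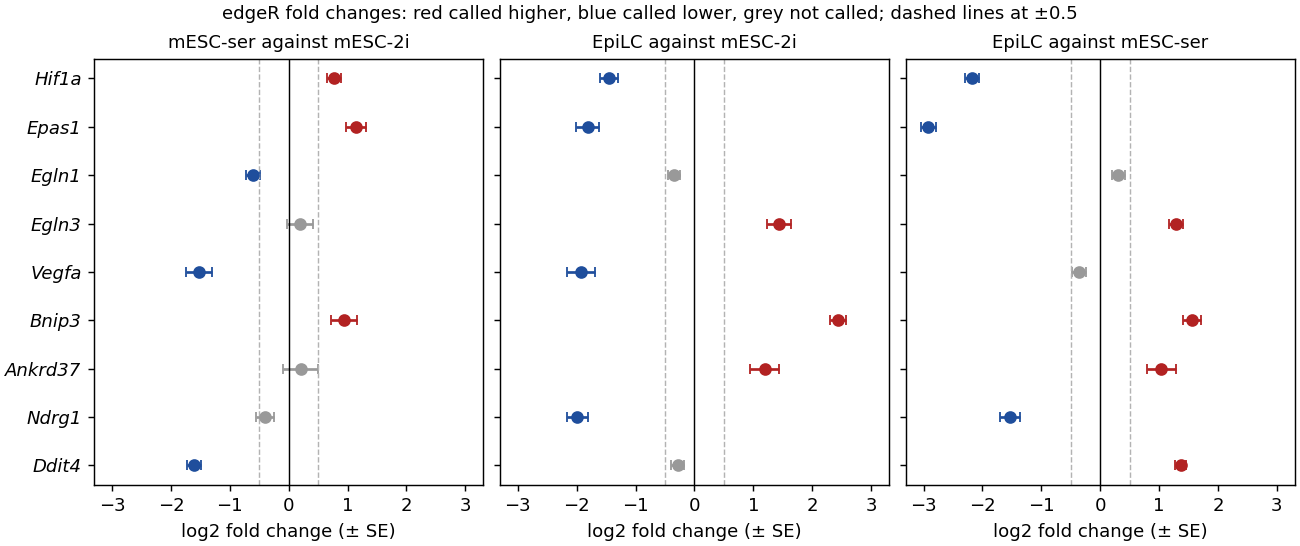
Log2 fold change (horizontal axis) with its SE for each hypoxia response gene in the 3 comparisons, from edgeR on 3 against 3 libraries. Red points were called higher, blue points lower and grey points not called, and dashed lines mark the fold threshold of 0.5. Hif1a and Epas1 lay to the right of 0 in the first panel and to the left in both others, while Bnip3 lay to the right in all 3.

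Both α subunit genes were highest in mESC-ser and lowest in EpiLC. Hif1a (ENSMUSG00000021109, chr12:73901375-73947530, plus strand), the α subunit present in most cell types, stood at 114, 86.0 and 103 CPM in the mESC-2i libraries, 181, 182 and 178 CPM in those of mESC-ser, and 38.1, 29.5 and 45.1 CPM in those of EpiLC. The 3 groups did not overlap. Hif1a was higher in mESC-ser than in mESC-2i by 0.78 on the log2 scale (SE 0.12, adjusted p = 0.000255, edgeR). It was lower in EpiLC, with a log2 fold change of -1.45 (SE 0.16, adjusted p = 1.08e-05) against mESC-2i and -2.18 (SE 0.12, adjusted p = 2.05e-11) against mESC-ser. The order of mESC-ser over mESC-2i over EpiLC was thus called at each step. With length and GC offsets the log2 fold changes were 0.50, -0.91 and -1.38 in the order above, and the first was not called.

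Epas1 (ENSMUSG00000024140, chr17:86753700-86833410, plus strand) encodes the other oxygen-labile α subunit among the 9, named for its expression in endothelium. It stood at 26.4, 23.4 and 37.7 CPM in the mESC-2i libraries, 63.7, 63.1 and 75.9 CPM in those of mESC-ser, and 9.53, 7.38 and 8.54 CPM in those of EpiLC. No library of one group reached the range of another. The log2 fold change was 1.15 (SE 0.17, adjusted p = 0.000182, edgeR) in mESC-ser against mESC-2i, -1.81 (SE 0.20, adjusted p = 1.04e-05) in EpiLC against mESC-2i and -2.92 (SE 0.12, adjusted p = 1.29e-12) in EpiLC against mESC-ser. The last was the largest absolute change of any of the 9 genes in the 3 comparisons. Tek fell from mESC-ser to EpiLC as well, from 17.4 ± 0.415 to 3.67 ± 0.864 CPM (SD, n = 3), while Emcn was at 0. Between mESC-2i and mESC-ser, where Epas1 rose, Tek went from 22.5 to 17.4 CPM and was not called, and Tie1, another endothelial receptor gene, was called higher at 2.58 against 1.01 CPM. Their part in the Epas1 result was not tested.

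Levels of different genes can be compared per exonic length only. Per kilobase, Hif1a stood at 17.2 ± 2.42 CPM in mESC-2i, against 30.6 ± 0.413 in mESC-ser and 6.37 ± 1.33 in EpiLC, and Epas1 at 5.22 ± 1.35, 12.1 ± 1.29 and 1.52 ± 0.193 (SD, n = 3). Hif1a was the more abundant of this pair in each of the 9 libraries. Hif3a, outside the 9, stood at 2.05 ± 0.252 in EpiLC, above Epas1, and is left out of the pair. Epas1 made up 23.2% ± 4.2 of the pair in mESC-2i, against 28.3% ± 2.4 in mESC-ser and 19.5% ± 2.43 in EpiLC (SD, n = 3). These shares ran from 19.6% to 27.8%, 26.7% to 31.1% and 16.7% to 20.9%, so mESC-2i overlapped both other states. They carry no length and GC offsets. With offsets the log2 fold changes were 0.50, -0.91 and -1.38 for Hif1a and 1.32, -1.25 and -2.60 for Epas1, in the order above. Whether the shares overlap with offsets was not tested.

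The hydroxylase genes parted from each other. Egln1 (ENSMUSG00000031987, chr8:124908587-124949324, minus strand), the main oxygen sensor of most cells, varied least among the 9, at 30.8, 31.8 and 31.3 CPM in the mESC-2i libraries, 20.0, 20.3 and 24.0 CPM in those of mESC-ser, and 23.2, 25.6 and 26.1 CPM in those of EpiLC. The mESC-2i libraries stood above both other groups, and mESC-ser overlapped EpiLC. Egln1 was lower in mESC-ser than in mESC-2i, with a log2 fold change of -0.60 (SE 0.12, adjusted p = 0.000976, edgeR), which became -0.32 and was not called with length and GC offsets. The log2 differences of -0.34 (SE 0.10, adjusted p = 0.0109) in EpiLC against mESC-2i and 0.30 (SE 0.11, adjusted p = 0.0159) in EpiLC against mESC-ser lay under the fold threshold. Scaling by total counts gave -0.68, which was called, and -0.04. Length and GC offsets gave -0.18 and 0.11. The direction between EpiLC and mESC-ser thus depended on the scaling.

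Egln3 (ENSMUSG00000035105, chr12:54178981-54203860, minus strand), a hydroxylase that HIF itself induces, was highest in EpiLC. It stood at 5.65, 7.75 and 11.6 CPM in the mESC-2i libraries, 9.10, 10.4 and 10.9 CPM in those of mESC-ser, and 22.1, 22.7 and 25.1 CPM in those of EpiLC. Every EpiLC library lay above all 6 others, while mESC-2i and mESC-ser overlapped. EpiLC differed from mESC-2i by a log2 fold change of 1.44 (SE 0.21, adjusted p = 9.64e-05, edgeR) and from mESC-ser by 1.29 (SE 0.12, adjusted p = 2.35e-08). Between mESC-ser and mESC-2i the log2 difference was 0.20 (SE 0.22, adjusted p = 0.452), and Egln3 was not called. The call depended on mESC-2i replicate 3, the highest of its group: without it the log2 difference was 0.52 (adjusted p = 0.0162) and was called. With length and GC offsets it was 0.61 (adjusted p = 0.0292), also called.

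Per kilobase of exon, Egln3 took 26.0% ± 6.84 of the Egln1 and Egln3 sum in mESC-2i, against 39.0% ± 1.75 in mESC-ser and 55.7% ± 1.12 in EpiLC (SD, n = 3). In single libraries the share ran from 19.8% to 33.4%, 37.9% to 41.0% and 54.5% to 56.5%. The groups did not overlap in this share. Egln1 stood at 3.02 ± 1.02 times Egln3 in mESC-2i, against 1.57 ± 0.112 times in mESC-ser and 0.794 ± 0.0365 times in EpiLC, the only state of the 3 where Egln3 was the larger.

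**Figure D3:**
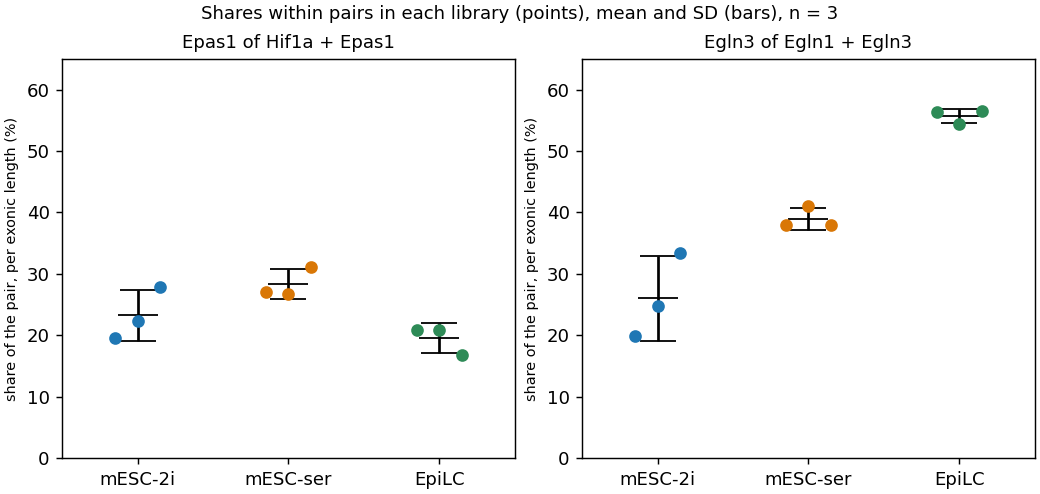
Share of Epas1 in the Hif1a and Epas1 sum (left) and of Egln3 in the Egln1 and Egln3 sum (right), per exonic length and in percent (vertical axes), in each library of the 3 states, with mean and SD (n = 3) as black bars. The Egln3 share had a mean of 26.0% in mESC-2i and of 55.7% in EpiLC, with no overlap of the groups, and the Epas1 share of mESC-2i overlapped both other states.

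The 5 target genes followed no common order. Vegfa (ENSMUSG00000023951, chr17:46016993-46032369, minus strand), which encodes the growth factor that guides blood vessels, was highest in mESC-2i at 50.7, 49.2 and 91.2 CPM. It stood at 21.6, 22.7 and 25.1 CPM in mESC-ser and at 14.5, 18.3 and 18.1 CPM in EpiLC. The groups did not overlap, although mESC-2i replicate 3 was far above replicates 1 and 2. The log2 fold change was -1.52 (SE 0.22, adjusted p = 0.000151, edgeR) in mESC-ser against mESC-2i and -1.93 (SE 0.23, adjusted p = 2.36e-05) in EpiLC against mESC-2i. Without mESC-2i replicate 3 these were -1.16 and -1.56, both still called. EpiLC and mESC-ser differed by -0.36 on the log2 scale (SE 0.12, adjusted p = 0.00956), under the fold threshold. Total-count scaling made this -0.70, which was called, and length and GC offsets made it -0.22. The mesoderm and neural marker sum and the trophectoderm marker sum were in the same order, through T (85.5, 4.38 and 1.35 CPM in mESC-2i, mESC-ser and EpiLC) and Tfap2c (65.5, 34.9 and 1.12 CPM). Pax6 and Gata3 of the same lists were highest in mESC-ser, at 25.2 and 5.28 CPM. Their part in the Vegfa result was not tested.

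Bnip3 (ENSMUSG00000078566, chr7:138890836-138909519, minus strand), a mitochondrial outer membrane protein that recruits the mitophagy machinery, ran the opposite way. It stood at 12.9, 17.0 and 20.0 CPM in the mESC-2i libraries, 38.2, 39.7 and 22.7 CPM in those of mESC-ser, and 95.8, 91.1 and 89.5 CPM in those of EpiLC. The 3 groups did not overlap, and mESC-ser replicate 3 lay closer to mESC-2i than to the other mESC-ser libraries. The log2 fold change was 0.94 (SE 0.22, adjusted p = 0.00374, edgeR) in mESC-ser against mESC-2i and 1.55 (SE 0.15, adjusted p = 5.1e-08) in EpiLC against mESC-ser. In EpiLC against mESC-2i it was 2.44 (SE 0.14, adjusted p = 9.55e-08), the largest rise of the 9 genes. All 3 calls held with length and GC offsets and with each library left out in turn.

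Ankrd37 (ENSMUSG00000050914, chr8:45996902-46005707, minus strand) encodes a small ankyrin repeat protein and is a HIF target. Per kilobase of exon it was the least abundant of the 9 in mESC-2i (1.44 ± 0.336 CPM, SD, n = 3). In mESC-ser it stood at 1.75 ± 0.611 CPM, within its spread of Ndrg1 at 1.79 ± 0.22. Levels of Ankrd37 were 1.72, 2.75 and 2.18 CPM in the mESC-2i libraries, 3.78, 2.12 and 2.18 CPM in those of mESC-ser, and 5.64, 4.12 and 6.03 CPM in those of EpiLC. These rest on 14 to 54 counts a library. EpiLC lay above all other libraries, and mESC-2i overlapped mESC-ser. EpiLC were higher than mESC-2i by 1.19 on the log2 scale (SE 0.24, adjusted p = 0.000941, edgeR) and higher than mESC-ser by 1.04 (SE 0.24, adjusted p = 0.000858). With length and GC offsets the second was 0.49 (adjusted p = 0.0622) and was not called. Between mESC-ser and mESC-2i the log2 difference was 0.20 (SE 0.29, adjusted p = 0.56), which became -0.09 without mESC-ser replicate 1 and 0.65 (adjusted p = 0.0539) with length and GC offsets.

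Ndrg1 (ENSMUSG00000005125, chr15:66929318-66969640, minus strand), a stress-responsive gene raised by hypoxia and differentiation in many cells, was lowest in EpiLC. It stood at 13.3, 14.3 and 17.1 CPM in the mESC-2i libraries, 11.0, 13.5 and 11.0 CPM in those of mESC-ser, and 3.36, 4.01 and 4.02 CPM in those of EpiLC. EpiLC lay below all other libraries, and mESC-2i overlapped mESC-ser. The log2 fold change was -1.99 (SE 0.17, adjusted p = 1.86e-06, edgeR) in EpiLC against mESC-2i and -1.54 (SE 0.17, adjusted p = 2.5e-07) in EpiLC against mESC-ser. Length and GC offsets reduced these to -1.33 and -0.96, both still called. The log2 difference of -0.40 (SE 0.15, adjusted p = 0.0357) between mESC-ser and mESC-2i lay under the fold threshold.

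Ddit4 (ENSMUSG00000020108, chr10:59949669-59951834, minus strand), an inhibitor of the growth kinase mTORC1, was lowest in mESC-ser. It stood at 83.7, 98.3 and 76.6 CPM in the mESC-2i libraries, 28.9, 32.3 and 27.4 CPM in those of mESC-ser, and 67.1, 78.2 and 69.2 CPM in those of EpiLC. The mESC-ser libraries lay below all others, and mESC-2i overlapped EpiLC. The log2 fold change was -1.60 (SE 0.12, adjusted p = 1.81e-06, edgeR) in mESC-ser against mESC-2i and 1.37 (SE 0.10, adjusted p = 8.86e-10) in EpiLC against mESC-ser. The second was 0.69 with length and GC offsets, still called. In EpiLC against mESC-2i the log2 difference was -0.29 (SE 0.11, adjusted p = 0.0377) and was not called, but it was called at -0.62 with total-count scaling and at -0.58 with length and GC offsets. Per kilobase of exon Ddit4 was the most abundant of the 9 in mESC-2i, at 49.1 CPM, and in EpiLC, at 40.8 CPM, where Bnip3 stood at 40.7 CPM.

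Several gene models touch a neighbour. Exons of Hif1a overlap Gm15283, which held 0 to 8 counts a library, and Gm49321. Those of Bnip3 overlap Gm45507. Ankrd37 shares exonic bases with Lrp2bp, with 0 to 2 counts a library, and over 57 bases with Ufsp2, with 99 to 337 counts. Ndrg1 overlaps Gm17035 and Gm2895, each with 0 or 1 count. The library kit does not mark strand, so reads in shared bases cannot be assigned to either gene, and Ankrd37, with its low counts, is the most uncertain of the 9 in this respect.

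**Figure D4:**
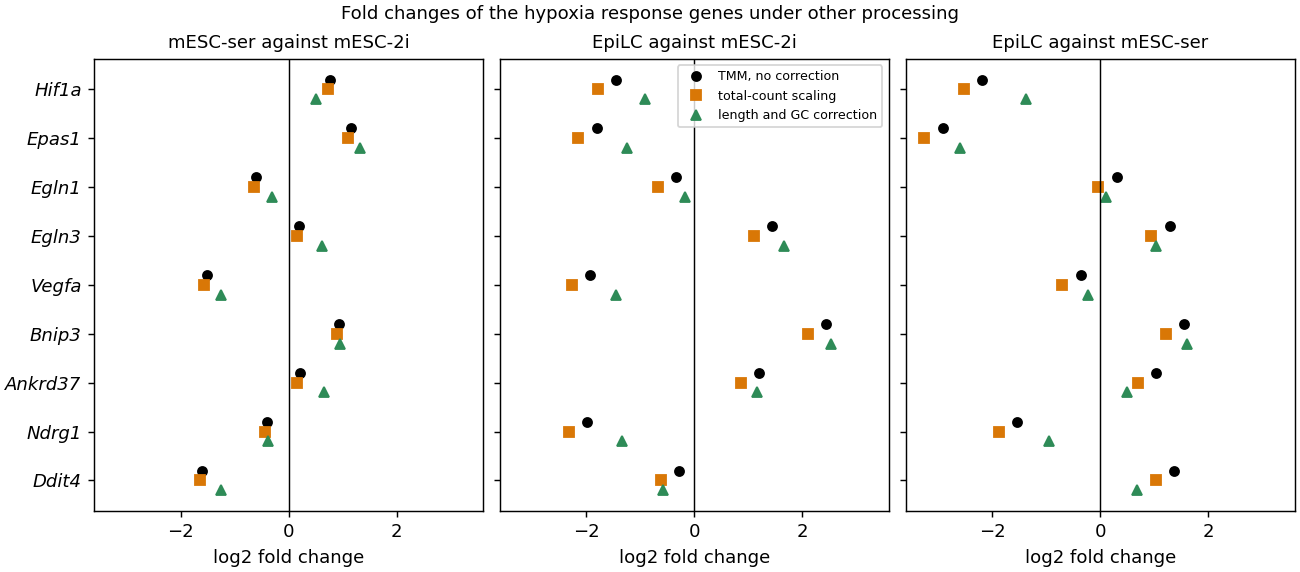
Log2 fold change (horizontal axis) of each hypoxia response gene in the 3 comparisons with TMM scaling (black circles), with total-count scaling (orange squares) and with length and GC offsets (green triangles). Total-count scaling moved every gene to the left in both EpiLC panels, and the offsets brought Hif1a against mESC-ser from -2.18 to -1.38 and Ddit4 from 1.37 to 0.69.

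Likeness of pattern was measured as the root mean square difference (RMS) of log2 CPM, centred on each gene, over the 9 libraries. A value of 0 means the same course, and the scale is that of log2 CPM. Hif1a and Epas1 were the closest of the 36 pairs of members (RMS 0.351), followed by Egln3 and Ankrd37 (0.393) and Egln3 and Bnip3 (0.488). Bnip3 and Ankrd37 lay 0.605 apart. Egln1 was nearest to Ddit4 (0.503) and Ndrg1 to Hif1a (0.532), with Vegfa next (0.554). The farthest pair was Epas1 and Bnip3 (2.08). For most members the nearest of 11887 protein-coding genes was far closer than any other member. A minimum over so many genes is smaller by their number alone, so it does not measure how alike the members are. Vegfa had Ints6l (RMS 0.076) and Srgap1 (0.103), Epas1 had Ttc39b (0.0813) and Tmtc3 (0.109), and Ddit4 had Cisd3 (0.0826) and Mpst (0.096). The nearest to Hif1a were Cenpc1 (0.0938), Ctdspl2 (0.103) and the cohesin gene Rad21 (0.112). Kank3 (0.103) was nearest to Ndrg1, Aspg (0.141) to Egln3, Ap4s1 (0.2) to Bnip3 and Tmem28 (0.218) to Ankrd37. Egln1 had Nudt3 at 0.0808, but its own log2 range of 0.661 was the smallest of the 9, against 3.33 for Epas1. These values describe 9 libraries in 3 groups.

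The rest of the pathway was followed in lists from general knowledge, also drawn up with earlier results known. Over all genes tested, 25.9% were called higher and 30.3% lower in mESC-ser against mESC-2i. For EpiLC these shares were 32.0% and 37.8% against mESC-2i, and 35.5% and 37.8% against mESC-ser. The median log2 fold changes of all genes were -0.04, -0.11 and -0.07. Of 20 HIF subunits and partners, 5 were higher and 7 lower in mESC-ser against mESC-2i (median log2 fold change -0.28), 4 and 10 in EpiLC against mESC-2i (-0.31) and 6 and 7 in EpiLC against mESC-ser (-0.25). With length and GC offsets the numbers were 6 and 6, 6 and 7, and 5 and 4, and the medians were -0.23, 0.02 and 0.02, beside 0.04, 0.21 and 0.16 for all genes. The coactivator genes Ep300 and Crebbp, acetyltransferases that HIF recruits, were higher in mESC-ser than in mESC-2i by log2 fold changes of 1.89 (SE 0.18) and 1.70 (SE 0.21). In EpiLC both were lower than in mESC-ser, at -2.73 (SE 0.11) and -4.73 (SE 0.16). Cited2, a HIF-induced protein that competes for these coactivators, was also lower there, at -2.32 (SE 0.09). Ep300 and Crebbp have long exonic lengths of 14273 and 13540 bases, and with offsets the EpiLC values were -1.52 and -3.58. Hif3a, an α subunit gene with inhibitory isoforms, was higher than in mESC-2i in mESC-ser, at 2.52 (SE 0.30), and in EpiLC, at 2.10 (SE 0.31), which was 2.75 with offsets.

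Genes of the Vhl ubiquitin ligase also parted in EpiLC. Vhl was lower in mESC-ser than in mESC-2i, with a log2 fold change of -1.16 (SE 0.17). In EpiLC Vhl stood at 13.4 ± 1.64 CPM, against 36.6 ± 5.54 in mESC-2i (SD, n = 3). With length and GC offsets this was a log2 fold change of -1.165, called lower. Elob and Eloc, the elongin adaptors of this ligase and of others, were higher in EpiLC than in mESC-2i, at 2.08 (SE 0.12) and 2.05 (SE 0.10). With offsets Elob, which has 1398 exonic bases, was at 1.56 and Eloc at 2.24. Arnt, the stable partner of the α subunits, is named here after its values were seen. It stood at 96.9 ± 13.2 CPM in mESC-2i, against 98.5 ± 1.35 in mESC-ser and 43.4 ± 2.74 in EpiLC (SD, n = 3). Its log2 fold changes of -1.18 (SE 0.12) and -1.09 (SE 0.08) in EpiLC against mESC-2i and mESC-ser were called, but those with offsets, -0.46 and -0.21, were not.

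The 20 other glycolytic HIF targets moved in both directions. In mESC-ser against mESC-2i 5 were higher and 6 lower (median log2 fold change -0.07), in EpiLC against mESC-2i 8 and 6 (0.24), and in EpiLC against mESC-ser 10 and 8 (0.40). Of all genes, 25.9% and 30.3%, 32.0% and 37.8%, and 35.5% and 37.8% were called in these directions. Length and GC offsets made the numbers 5 and 5, 10 and 6, and 9 and 5, and the medians were 0.30, 0.52 and 0.18, beside 0.04, 0.21 and 0.16 for all genes. The lactate exporter gene Slc16a3 was higher in EpiLC than in mESC-2i by a log2 fold change of 3.84 (SE 0.16), while the glucose transporter gene Slc2a3 was lower, at -4.84 (SE 0.11) or, with offsets, -4.18. Hk1, which encodes the first enzyme of glycolysis, was lower than in mESC-2i in mESC-ser, at -2.26 (SE 0.11), and in EpiLC, at -2.81 (SE 0.09). Hk2, its HIF-induced isozyme, was lower in EpiLC than in mESC-ser, at -2.32 (SE 0.10). Aldoa, an aldolase gene, was higher in EpiLC than in mESC-ser, at 1.85 (SE 0.08). Summed over the 20 genes, levels were 8950 to 9470 CPM in mESC-2i, 8920 to 9220 in mESC-ser and 13900 to 14800 in EpiLC. Such a sum follows the most abundant genes. Pdk1, a kinase that restrains the use of pyruvate in mitochondria, was higher in mESC-ser than in mESC-2i, at 1.51 (SE 0.11). The aldolase gene Aldoc was lower in mESC-ser, at -2.47 (SE 0.14).

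Of 42 other HIF targets 38 or 39 were tested. In mESC-ser against mESC-2i 8 were higher and 11 lower (median log2 fold change -0.20), in EpiLC against mESC-2i 11 and 20 (-0.52), and in EpiLC against mESC-ser 11 and 17 (-0.32), beside the same shares of all genes as above (25.9% and 30.3%, 32.0% and 37.8%, 35.5% and 37.8%). With length and GC offsets the numbers were 8 and 12, 14 and 17, and 13 and 14, and the median in EpiLC against mESC-2i changed sign to 0.15 beside 0.21 for all genes. Flt1, a receptor for Vegfa, was higher in mESC-ser than in mESC-2i by 4.06 on the log2 scale (SE 0.25). In mESC-2i, where Vegfa was highest, Flt1 stood at 0.525 CPM, from only 3, 7 and 8 counts, against 9.53 CPM in mESC-ser. Cxcr4, a chemokine receptor gene, was lower than in mESC-2i in mESC-ser, at -3.39 (SE 0.36), and in EpiLC, at -3.84 (SE 0.28). It held only 4, 17 and 19 counts in the mESC-ser libraries and 4, 6 and 6 in those of EpiLC. Fam162a, a mitochondrial protein gene, was higher in EpiLC than in mESC-2i, at 3.18 (SE 0.12), and Ak4, a mitochondrial adenylate kinase gene, was lower, at -3.44 (SE 0.13). Against mESC-ser the histone demethylase gene Kdm3a was lower in EpiLC, at -2.51 (SE 0.09), and with offsets this was -1.50.

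**Figure D5:**
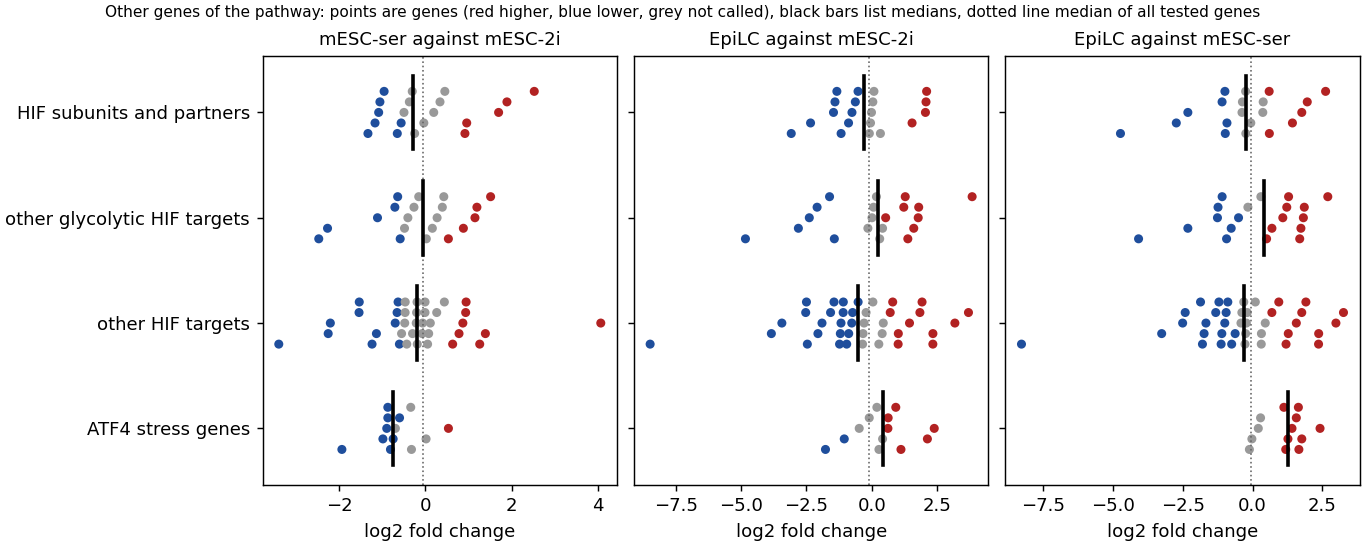
Log2 fold change (horizontal axis) of each tested gene of the 4 pathway lists in the 3 comparisons, with list medians as black bars and the median of all tested genes as a dotted line. Genes of every list lay on both sides of 0 in the EpiLC panels; the isolated blue point near the left edge there is Edn1, with no count in EpiLC, where edgeR's fitted value depends on the prior count.

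Edn1, the endothelin gene, is singled out after its values were seen because it had no count in any EpiLC library. Against 3 counts per library it was at least 12.5-fold lower in EpiLC than in mESC-2i and at least 9.38-fold lower than in mESC-ser.

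Ddit4 is also raised by the stress factor Atf4, and 13 genes of that response were followed beside it. In mESC-ser against mESC-2i 1 was higher and 8 lower (median log2 fold change -0.75), in EpiLC against mESC-2i 6 and 2 (0.41), and in EpiLC against mESC-ser 9 were called, each higher (1.27). The shares of all genes called higher and lower were 25.9% and 30.3%, 32.0% and 37.8%, and 35.5% and 37.8%. The list gave 1 and 6, 6 and 2, and 9 and 1 with length and GC offsets. Its medians were then -0.48, 0.42 and 0.75, beside 0.04, 0.21 and 0.16 for all genes. Asns, the asparagine synthetase gene, was lower in mESC-ser than in mESC-2i by a log2 fold change of -1.93 (SE 0.11). Trib3, a pseudokinase gene, was lower there as well, at -0.89 (SE 0.12), and was higher in EpiLC than in mESC-ser, at 1.57 (SE 0.10). With offsets these were -0.57 and 0.98, both still called. Chac1, which degrades glutathione, was higher in EpiLC by 2.39 (SE 0.11) against mESC-2i and 2.42 (SE 0.10) against mESC-ser on the log2 scale, of which the second was 1.70 with offsets. Asns was also lower in EpiLC than in mESC-2i, at -1.77 (SE 0.10). Ddit4 was not called there, at -0.29, but was called lower at -0.58 with offsets. The part of Atf4 in the Ddit4 result was not tested.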

How the data were processed

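RNA was enriched for poly-A, made into TruSeq libraries and read as single ends. Per the labels and the study's methods, the authors trimmed reads with Trim Galore (0.6.6), aligned them to mm10 with HISAT2 (2.2.1) and counted them with featureCounts of Subread (2.0.1). The deposited table holds counts of reads for each Ensembl gene, not normalized. The annotation release, the strand setting and the handling of multiply aligned reads are not given in the sources used here.

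Symbols, positions and exonic lengths came from GENCODE M21 (GRCm38), which matched 36345 identifiers (94.9%). Each pair of groups was fitted with edgeR 4.0.16 (R 4.3.3, limma 3.58.1): filterByExpr, TMM and the quasi-likelihood F-test over all genes. SEs were taken from the F statistic, and log2 CPM used a prior count of 2. The steps were tested on simulated data. DESeq2 1.42.0 and a fit with spline offsets (5 degrees of freedom) for length and GC content were among the alternatives.

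Same-numbered libraries of mESC-ser and mESC-2i deviated together across genes (correlations 0.155 to 0.375, other pairs -0.308 to 0.159) and may be paired. These ranges overlap, as mESC-ser replicate 1 gave 0.159 with mESC-2i replicate 2 and 0.155 with replicate 1. Pairs of replicate 3 with replicate 1 or 2 of the other state gave -0.308 to -0.184. Whether the number marks pairs, or replicate 3 stands apart in both states, was not tested. In both EpiLC comparisons every same-numbered pair of libraries correlated more than the other pairs, but weakly. The correlations were 0.0179 to 0.111 against -0.109 to 0.0128 with mESC-2i. With mESC-ser they were 0.0151 to 0.0317 against -0.0351 to 0.0111. A fit with the number as a block was an alternative. The fold changes in the report come from the fit without it. What the number stands for is not given in the labels. Replicates of a group differed by more than sampling noise (chi-square per degree of freedom 1.66 to 30.5). Between replicates 1 and 2 it was 4.08 in mESC-2i and 1.66 in mESC-ser. With replicate 3 it was 13.6 and 30.5 in mESC-2i, and 11.8 and 12 in mESC-ser. If they were not separate cultures, the p-values measure technical spread.

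The members and the lists were chosen with earlier results of these data known. Genes named beside the members were, per list and comparison, among the 4 called genes with the largest absolute log2 fold change and, in the higher group, a mean count of 100 or more, and the 3 protein-coding genes nearest in pattern to a member. A gene with 3 counts or fewer in every library of a group was at the floor there, and floors cover counting error only. Promoter sequences are from RefSeq. The study's histone data were not analysed here.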

Additional observations from a re-analysis of the deposited data

How the results depend on the processing

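All 9 genes kept their direction under RLE scaling, both other filters on low counts, DESeq2, 1 fit of all 9 libraries, the other thresholds and the length and GC offsets. The exceptions were Egln1 in EpiLC against mESC-ser, at -0.037 (adjusted p = 0.757) with total-count scaling, and Ankrd37 in mESC-ser against mESC-2i, which ran from -0.088 to 0.368 when 1 library was left out in turn. The cause was not tested. In mESC-ser against mESC-2i an absolute log2 fold change over 1 left 4935 called genes of 8843 and 3 of the 6 members. Total-count scaling called 3709 genes higher and 7284 lower in EpiLC against mESC-2i, where TMM called 4922 and 5810, and 4294 and 7195 in EpiLC against mESC-ser, where TMM called 5444 and 5802. Length and GC offsets gave 5863 and 4408, and 5686 and 4365. Over all alternatives, 144, 148 and 148 fold changes of members in mESC-ser against mESC-2i, EpiLC against mESC-2i and EpiLC against mESC-ser kept direction and side of the threshold, 3, 5 and 3 were newly called, and 5, 0 and 1 were no longer called. With the replicate number as a block, the mESC-ser and mESC-2i pair gave 8953 called genes, and the block changed no call of a member there or in the other comparisons (10759 and 11207 genes). Depth limits Ankrd37 most, with 14 to 54 counts a library.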
